A study of Mus musculus with 18 samples.

Results

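The 9 genes described here were listed as markers of tissues at the edge of the striatum. Of these, 4 were listed for the choroid plexus (Ttr, Kl, Clic6 and Folr1) and 5 for the ependyma (Foxj1, Ccdc153, Tmem212, Dynlrb2 and Rarres2). They were taken by gene name from a table of 29942 names, and all 9 were in it. The samples were striatal polyA RNA of 18 sibling mice of strain 129Sv/Jae S4, age-matched, sex-matched and group-housed, with 3 mice in each of 6 groups. Saline groups had received 0.9% saline and amphetamine groups D-amphetamine at 7 mg/kg in total per day, both given intraperitoneally, and each treatment was sampled on days 1, 7 and 21. The dissected tissue was striatum above the anterior commissure, from both hemispheres, and the series title connects the study with repetitive behaviours caused by the drug. The labels state neither the animals' age nor their sex.

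The choroid plexus is a folded epithelium that hangs in the brain ventricles, secretes cerebrospinal fluid and passes hormones and vitamins from blood to that fluid. The ependyma is the sheet of multiciliated cells that lines the ventricles, and its beating cilia move the fluid along the wall. The striatum forms part of the wall of the lateral ventricle, so ependyma lies against it and choroid plexus lies close by. In whole tissue, fewer cells of a type and less RNA per cell cannot be told apart, and this holds for every level below.

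Levels are given as FPKM, in which fragments are scaled to the length of the transcript and to the number mapped in the library, so that levels can be compared between genes. The shallowest library had 0.652 of the depth of the deepest, as judged from the smallest increments of the values, and the sums of FPKM ran from 533020 to 682270. The labelled tissue was present in every library: 8 listed markers of striatal projection neurons summed to between 3383 and 4231 FPKM, led by Penk (mean 1232 FPKM) and Ppp1r1b (mean 1142 FPKM). Set against these, the 9 boundary markers were rare, with means from 0.311 FPKM for Folr1 to 18.4 FPKM for Ttr. Means of at least 1 FPKM were reached by 7 of the 9, which entered the tests over 13975 genes. Kl lay just inside that limit at 1.07 FPKM, and Tmem212 (0.887 FPKM) and Folr1 lay outside it.

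Ttr encodes transthyretin, the carrier of thyroid hormone and of retinol-binding protein that choroid plexus epithelium secretes in large amounts. Its level on day 1 was 12.9, 8.64 and 2.46 FPKM in the 3 saline libraries and 91.1, 18.1 and 42.9 FPKM in the 3 amphetamine libraries. On day 7 it was 9.65, 7.70 and 1.63 FPKM with saline and 20.3, 0.911 and 24.4 FPKM with amphetamine. On day 21 it was 4.73, 18.5 and 30.5 FPKM with saline and 13.9, 17.5 and 4.85 FPKM with amphetamine. The groups stood apart on day 1 only, where every amphetamine library lay above every saline library, and on days 7 and 21 they overlapped. From the lowest library, amphetamine day 7 replicate 2, to the highest, amphetamine day 1 replicate 1, Ttr spanned 99.96-fold, and both ends of that range were amphetamine animals.

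That span was far wider than the counting error. The values of Ttr were whole multiples of a single step in each library (within 0.05 of a fragment), which gave 11 fragments in the lowest library (95% exact Poisson interval 5.49 to 19.7) and 1219 in the highest. Over the 18 libraries the coefficient of variation was 115%, where counting alone would give 6.12%. Intervals of this kind cover counting error only.

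Clic6, a chloride intracellular channel family protein abundant in choroid plexus epithelium, was the steadiest of the 9. On day 1 the saline libraries had 5.68, 6.34 and 7.00 FPKM and the amphetamine libraries 7.46, 6.60 and 8.38 FPKM. The day 7 values were 5.20, 4.96 and 5.47 FPKM with saline and 5.79, 6.31 and 5.68 FPKM with amphetamine. By day 21 they were 4.76, 6.18 and 5.86 FPKM with saline and 5.85, 8.52 and 5.65 FPKM with amphetamine. Only the day 7 groups failed to overlap. From lowest to highest Clic6 spanned 1.79-fold, on 223 to 419 fragments a library, and its coefficient of variation was 17% against 5.64% from counting.

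Kl encodes Klotho, the co-receptor for the hormone FGF23, made in choroid plexus and kidney and at a lower level in neurons. Its day 1 levels were 0.836, 0.711 and 0.897 FPKM with saline and 1.82, 1.56 and 1.43 FPKM with amphetamine. On day 7 the saline libraries gave 0.605, 0.650 and 0.733 FPKM and the amphetamine libraries 0.757, 1.15 and 1.00 FPKM. The day 21 libraries gave 1.04, 0.848 and 1.18 FPKM with saline and 1.03, 1.61 and 1.33 FPKM with amphetamine. Amphetamine libraries were all higher on days 1 and 7, and the groups overlapped on day 21. Kl spanned 3.00-fold in all.

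Folr1, the folate receptor through which choroid plexus takes folate into the cerebrospinal fluid, was listed at 0 in 3 libraries, all of day 7. Its highest levels were 1.03 and 0.762 FPKM in amphetamine replicates 3 and 1 of day 1, whereas replicate 2 of the same group had 0.0908 FPKM. Those high libraries were also the top pair for Ttr. On day 21 saline libraries had 0.0837, 0.505 and 0.609 FPKM and amphetamine libraries 0.342, 0.415 and 0.370 FPKM.

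Foxj1 is the transcription factor that switches on the genes of motile cilia, and it marks ependymal cells in the adult forebrain. Saline libraries of day 1 had 1.33, 2.83 and 1.22 FPKM of it and amphetamine libraries 1.44, 3.13 and 4.27 FPKM. On day 7 the levels were 0.345, 0.847 and 1.07 FPKM with saline and 2.71, 2.49 and 0.600 FPKM with amphetamine. Day 21 gave 0.560, 1.95 and 3.94 FPKM with saline and 1.15, 3.73 and 2.53 FPKM with amphetamine. The 2 treatments overlapped on all 3 days, and animals of a single group differed by up to several fold.

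Ccdc153, which encodes a coiled-coil protein of the cilium and is an established ependymal marker, rose and fell with Foxj1. On day 1 it was at 0.462, 1.32 and 0.642 FPKM with saline and 0.637, 1.78 and 4.14 FPKM with amphetamine. On day 7 it was listed at 0 in saline replicates 1 and 3 and stood at 0.505 FPKM in replicate 2, and the amphetamine libraries had 4.36, 0.565 and 0.104 FPKM. On day 21 saline libraries had 0.106, 2.15 and 3.63 FPKM and amphetamine libraries 0.695, 5.0 and 1.69 FPKM. No day separated the treatments.

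Tmem212, a transmembrane protein gene used to mark ependymal cells, was measured on very few fragments. The 18 libraries held 118 fragments of it in all, from 0 to 20 each. Saline libraries of day 1 had 8, 12 and 0 fragments and amphetamine libraries 1, 10 and 20, so libraries with many fragments and libraries with 0 or 1 stood in the same groups. Day 7 gave 1, 1 and 0 fragments with saline and 5, 3 and 1 with amphetamine. Saline libraries of day 21 held 1, 12 and 20 fragments and amphetamine libraries 4, 15 and 4. A count of 0 allows up to 3 fragments, which is 0.444 FPKM in saline replicate 3 of day 1 and 0.422 FPKM in saline replicate 3 of day 7. Counting alone would give a coefficient of variation of 39.1%, and 102% was observed.

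Dynlrb2, a light chain of the dynein motor that is rich in ciliated tissues, ranged from 0 in saline replicates 2 and 3 of day 7 to 4.10 FPKM in amphetamine replicate 3 of day 1. Its group means ran from 0.430 ± 0.745 FPKM (SD, n = 3) in saline day 7 to 2.24 ± 1.63 FPKM (SD, n = 3) in amphetamine day 1. Rarres2 encodes chemerin, a secreted chemoattractant and adipokine, and is expressed in ependyma as well as in other tissues. It was the most abundant of the ependymal markers at 4.38 to 13.97 FPKM. The 3 saline animals of day 1 were nearly identical for Rarres2, at 7.23, 7.21 and 7.17 FPKM, and the amphetamine animals of that day were at 7.49, 7.98 and 13.97 FPKM.

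Promoter sequences are shown for the ependymal markers because these markers rose and fell together across the libraries. RefSeq sequences (build GRCm38.p6, whereas the expression table rests on mm9) covered 4 of the 9 markers, Tmem212, Dynlrb2, Ccdc153 and Kl. Windows of 250 bases before and 50 bases after each start were searched on both strands for GTTGCC, a half-site of the RFX factors that act with Foxj1 at ciliary genes, for the forkhead motif GTAAACA and for the OTX motif TAATCC. The RFX half-site occurred once in Dynlrb2, at -51 to -46 from the start, and once in Ccdc153, at -152 to -147. Over 32851 RefSeq promoters of the same length 12.5% held it. Neither it nor the other motifs occurred in Tmem212 or Kl, and GTAAACA (3.65% of promoters) and TAATCC (7.06%) occurred in none of the 4. In both Dynlrb2 and Ccdc153 the half-site was followed within 2 to 6 bases by CAAC, a longer form looked for after the sequences were seen, which 0.514% of promoters held on either strand. The 250 bases before each start follow, 5′ to 3′ on the strand of the gene, with the half-site and its added letters in capitals.
Dynlrb2, chr8:116504765-116505014, plus strand: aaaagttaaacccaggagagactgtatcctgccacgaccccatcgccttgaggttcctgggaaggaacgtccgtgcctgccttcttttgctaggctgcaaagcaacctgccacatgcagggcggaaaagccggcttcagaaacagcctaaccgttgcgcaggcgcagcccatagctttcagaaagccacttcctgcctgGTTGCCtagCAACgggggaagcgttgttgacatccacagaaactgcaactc
Ccdc153, chr9:44240427-44240676, plus strand: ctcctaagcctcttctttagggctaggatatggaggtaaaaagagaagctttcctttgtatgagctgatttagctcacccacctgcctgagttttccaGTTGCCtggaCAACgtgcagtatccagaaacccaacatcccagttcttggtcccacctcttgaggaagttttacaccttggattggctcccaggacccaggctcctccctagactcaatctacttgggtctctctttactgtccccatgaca
Tmem212, chr3:27896369-27896618, minus strand: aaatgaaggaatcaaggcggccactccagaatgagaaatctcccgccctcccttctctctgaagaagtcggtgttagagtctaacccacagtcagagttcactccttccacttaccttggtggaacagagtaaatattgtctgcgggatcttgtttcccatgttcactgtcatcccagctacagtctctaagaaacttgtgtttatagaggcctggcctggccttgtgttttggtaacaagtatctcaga

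**Figure D1:**
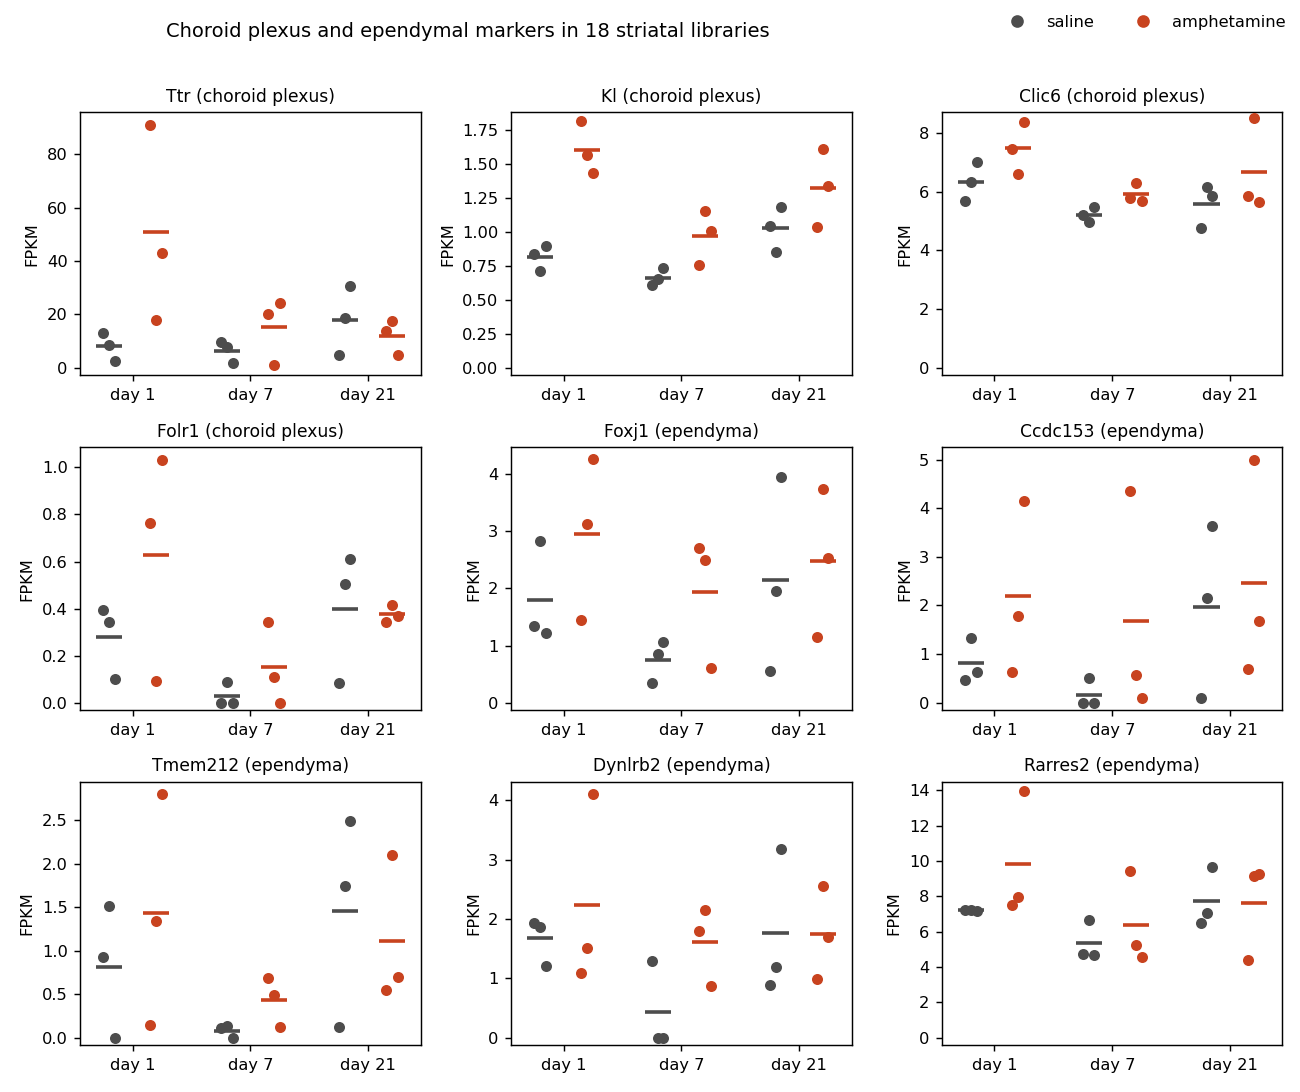
FPKM of each of the 9 markers (y axis, linear, from 0) on days 1, 7 and 21 (x axis); each point is 1 animal, grey for saline and red for amphetamine, and each line is the mean of 3 animals. Ttr ran up to 91.1 FPKM in 1 amphetamine animal of day 1. Every marker had its lowest group mean in saline day 7, and the share of all genes that did was not counted.

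Among the 6 groups, saline animals of day 7 had the lowest mean for 9 of 9 markers, and amphetamine animals of day 1 had the highest mean for 7 of 9. The share of all genes with the same lowest or highest group was not counted. The 9 markers were read in the same animals and their levels correlated positively in every pair, so they are not independent of one another. The exceptions were Ccdc153, highest in amphetamine day 21, and Tmem212, highest in saline day 21. For Ttr the group means in order were 50.7 ± 37.1 FPKM in amphetamine day 1, 17.9 ± 12.9 in saline day 21, 15.2 ± 12.5 in amphetamine day 7, 12.1 ± 6.50 in amphetamine day 21, 8.0 ± 5.25 in saline day 1 and 6.33 ± 4.18 in saline day 7 (SD, n = 3 each). No neighbouring pair in that order differed by more than the larger of their SDs. Over all 9 markers, 6 of 45 neighbouring pairs did. Saline day 7 was the lower group in 5 of these 6, for Kl, Foxj1, Ccdc153, Tmem212 and Dynlrb2, and the other pair was amphetamine above saline on day 21 for Kl.

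Whether amphetamine changed the markers was tested with limma on log2(FPKM + 1), over all 13975 genes together. Differences are on that scale, which understates the change of genes near or below 1 FPKM, and p-values measure the spread between animals. None of the 7 tested markers passed an adjusted p of 0.05 on day 1, where 1 gene in the whole table passed (0.00716% of genes tested). None passed on day 7 (background 0.0215%), on day 21 (0.0%) or in the mean of the 3 daily differences (0.122%). The F test of whether the difference varied between days also called none of them (background 0.0%), as did the test of days among saline animals (0.00716%). At an unadjusted p under 0.05, limma counted 2 of the 7 markers on day 1, Ttr and Kl, against 7.25% of all genes tested (1013 genes). On day 7 it counted 1, Dynlrb2, against 4.92% (687 genes), and on day 21 it counted 0, against 5.5% (768 genes). For the mean of days it counted 2, Kl and Clic6, against 5.36% (749 genes). The interaction gave 0 of the 7, against 6.25% (873 genes), and the days among saline animals gave 1, Dynlrb2, against 5.95% (832 genes).

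Kl had the smallest p of the markers. On the log2 scale it was 0.32 ± 0.07 (SE) higher with amphetamine when averaged over the days (limma adjusted p = 0.181), and on day 1 it was 0.52 ± 0.12 higher (limma adjusted p = 0.471). Clic6 was 0.19 ± 0.07 higher over the days (limma adjusted p = 0.851), with daily differences of 0.21, 0.16 and 0.20, of which the last was 0.039 when amphetamine replicate 2 of day 21 was left out. An exact permutation of treatment within days, which covers all 9 markers and uses no variance model, gave two-sided p = 0.00125 for Kl and p = 0.01275 for Clic6, without adjustment for the 9 tests and with 0.00025 as the smallest p possible. Leaving out amphetamine replicate 2 or 3 of day 7 or saline replicate 3 of day 21 brought the markers under an unadjusted exact p of 0.05 from 2 to 3, and leaving out any other library kept the number at 2. With all libraries the other 7 markers had exact permutation p-values from 0.1045 for Foxj1 to 0.469 for Tmem212.

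Ttr had the widest estimates. It was 2.46 ± 0.98 (SE) higher with amphetamine on day 1 on the log2 scale (limma adjusted p = 0.666), 0.69 ± 0.98 higher on day 7 and 0.38 ± 0.98 lower on day 21. The day 7 difference was 0.029 without amphetamine replicate 3 of that day and 1.89 without replicate 2. Its mean over the days was 0.92 ± 0.57 higher (limma adjusted p = 0.999, exact permutation p = 0.173). The change of its difference between days did not pass (interaction limma adjusted p = 0.775).

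The 4 tested ependymal markers all had mean differences above 0, and none passed. Foxj1 was 0.46 ± 0.26 higher on the log2 scale over the days, Ccdc153 0.61 ± 0.37, Dynlrb2 0.39 ± 0.23 and Rarres2 0.15 ± 0.16 (limma adjusted p = 0.999 for each). Among these 4, Dynlrb2 had the smallest p on a single day, 0.95 ± 0.40 higher on day 7 (limma adjusted p = 0.942), where 2 of the 3 saline libraries were listed at 0. Among saline animals alone, Dynlrb2 also had the smallest p across days of the 7 tested markers (limma adjusted p = 0.811). In the mean of days 7 of 7 tested markers lay above 0, where 55.6% of all tested genes did and the median of all genes was 0.01. These signs come from the same animals and are not independent of one another.

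**Figure D2:**
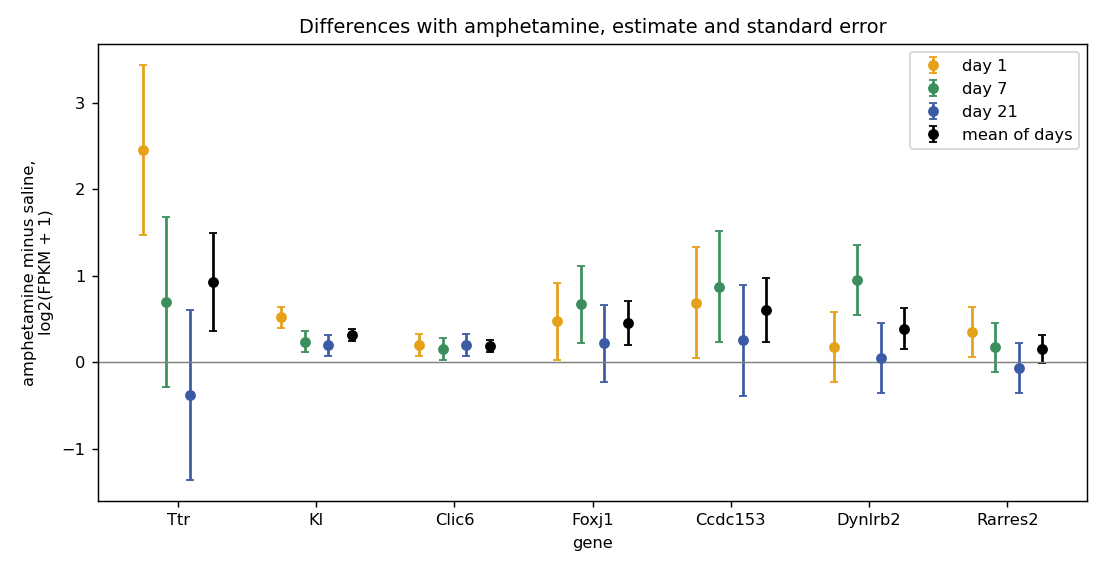
Amphetamine minus saline in log2(FPKM + 1) (y axis) for the 7 tested markers (x axis), as the limma estimate (point) and its standard error (bar) on day 1, day 7, day 21 and for the mean of days. The estimates for Ttr run from 2.46 on day 1 to -0.38 on day 21, and those for Kl and Clic6 have short bars.

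Counted by separation of the animals, 3 of the 7 tested markers (Ttr, Kl and Rarres2) had all 3 amphetamine libraries above all 3 saline libraries on day 1, against 7.73% of the tested genes. On day 7 there were 2 of the 7 (Kl and Clic6), against 5.45%, and on day 21 there were 0, against 4.76%. Folr1 and Tmem212, under the filter, overlapped on every day. No marker had all amphetamine libraries below all saline libraries on any day, and the share of all tested genes that did was not counted. Within a single day an exact permutation of 3 against 3 cannot give a two-sided p under 0.1.

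The spread between animals of a group was then used to ask which markers rise and fall together. For 14 pairs, levels in log2(FPKM + 1) were correlated over the 18 libraries and again after the mean of each group was taken off, which removes any mean difference between treatments or days. Permutation p-values were adjusted over the 14 pairs by the Benjamini-Hochberg method. The 18 points share 1 dissection procedure and 1 normalization.

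Foxj1 and Ccdc153 had r = 0.89 and rho = 0.87 over the libraries (permutation adjusted p = 0.00014 for both, the smallest that 100000 resamples allow), and r = 0.86 without the 2 libraries farthest from the median of Foxj1. With group means taken off r was still 0.86 (exact permutation adjusted p = 0.0141), with 0.93 among the animals of day 1, 0.65 on day 7 and 0.96 on day 21. That centred relation no longer passed when any single saline library of day 21 was left out (exact permutation adjusted p = 0.0576, 0.0513 and 0.0513 without replicates 1, 2 and 3), although r stayed between 0.81 and 0.86. Foxj1 and Tmem212 had r = 0.85 and rho = 0.86 (permutation adjusted p = 0.00028 and 0.000187), r = 0.82 without the 2 farthest libraries and a centred r of 0.84 (exact permutation adjusted p = 0.0108). These were the 2 of 14 pairs whose centred relation passed.

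Rarres2 followed Foxj1 with r = 0.76 and rho = 0.83 (permutation adjusted p = 0.000607 and 0.00014), r = 0.68 without the 2 farthest libraries and a centred r of 0.70 that missed the threshold (exact permutation adjusted p = 0.0579). Dynlrb2 followed Foxj1 with r = 0.73 and rho = 0.81 (permutation adjusted p = 0.00161 and 0.00042), r = 0.75 without those libraries and a centred r of 0.60 (exact permutation adjusted p = 0.111) that was 0.24 with a pseudocount of 0.1. Among day 1 animals the centred r of Dynlrb2 was 0.74, among day 7 animals 0.07 and among day 21 animals 0.94, and it was 0.86 without saline replicate 1 of day 7 (exact permutation adjusted p = 0.0099). Among all 10 pairs of ependymal markers the centred r ran from 0.56 to 0.86, with a median of 0.71.

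Ttr was set against the ependyma through Foxj1, with which it had r = 0.27 and rho = 0.41 (permutation adjusted p = 0.428 and 0.155), r = 0.50 without amphetamine replicate 2 of day 7 and amphetamine replicate 1 of day 1, and a centred r of -0.04 (exact permutation adjusted p = 0.907). Within days the centred r was -0.23, -0.56 and 0.67 on days 1, 7 and 21. Single animals show both kinds of mismatch. Amphetamine replicate 1 of day 1 had the highest Ttr of all, 91.1 FPKM, with Foxj1 at 1.44 FPKM and 1 fragment of Tmem212. Amphetamine replicate 2 of day 7 had the lowest Ttr, 0.911 FPKM, with Foxj1 at 2.49 FPKM. Amphetamine replicate 3 of day 1 was high for both tissues, with the second Ttr level, 42.9 FPKM, and the highest Folr1, Foxj1, Tmem212, Dynlrb2 and Rarres2.

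Likeness among the choroid plexus markers varied. Folr1 was nearest to Ttr, with r = 0.67 and rho = 0.59 (permutation adjusted p = 0.00596 and 0.0338), r = 0.61 without the 2 farthest libraries and a centred r of 0.52 that did not pass (exact permutation adjusted p = 0.201). Without amphetamine replicate 3 of day 7 the centred r was 0.69 (exact permutation adjusted p = 0.0438). Kl had r = 0.45 and rho = 0.39 with Ttr (permutation adjusted p = 0.124 and 0.167), r = 0.40 without the 2 farthest libraries and a centred r of -0.22. Clic6 had r = 0.41 and rho = 0.42 (permutation adjusted p = 0.164 and 0.155), again r = 0.40 without those libraries, and a centred r of 0.10. With the ependymal markers the centred r ran from 0.47 to 0.57 for Folr1, from 0.33 to 0.54 for Clic6 and from -0.15 to 0.09 for Kl. Over the 6 pairs of choroid plexus markers the centred r had a median of 0.22, and over the 20 pairs of 1 marker from each tissue a median of 0.31. Whether within-tissue pairs differ from pairs across tissues was not tested. Whether the levels of Kl and Clic6 reflect choroid plexus tissue in these libraries was not tested either.

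**Figure D3:**
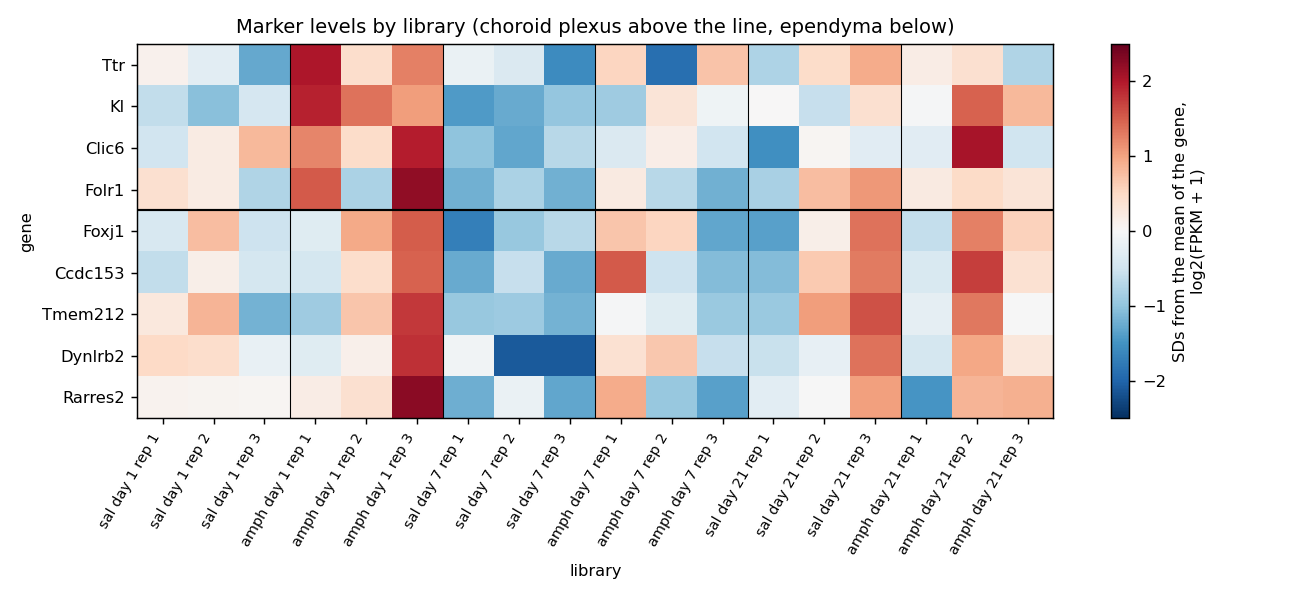
Level of each marker (rows) in each of the 18 libraries (columns, grouped by treatment and day), as SDs of log2(FPKM + 1) from the mean of that marker, blue below and red above. All 5 ependymal rows are red in amphetamine day 1 replicate 3 and in saline day 21 replicate 3, and the Ttr row has its darkest red in amphetamine day 1 replicate 1, where the ependymal rows are pale or blue.

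**Figure D4:**
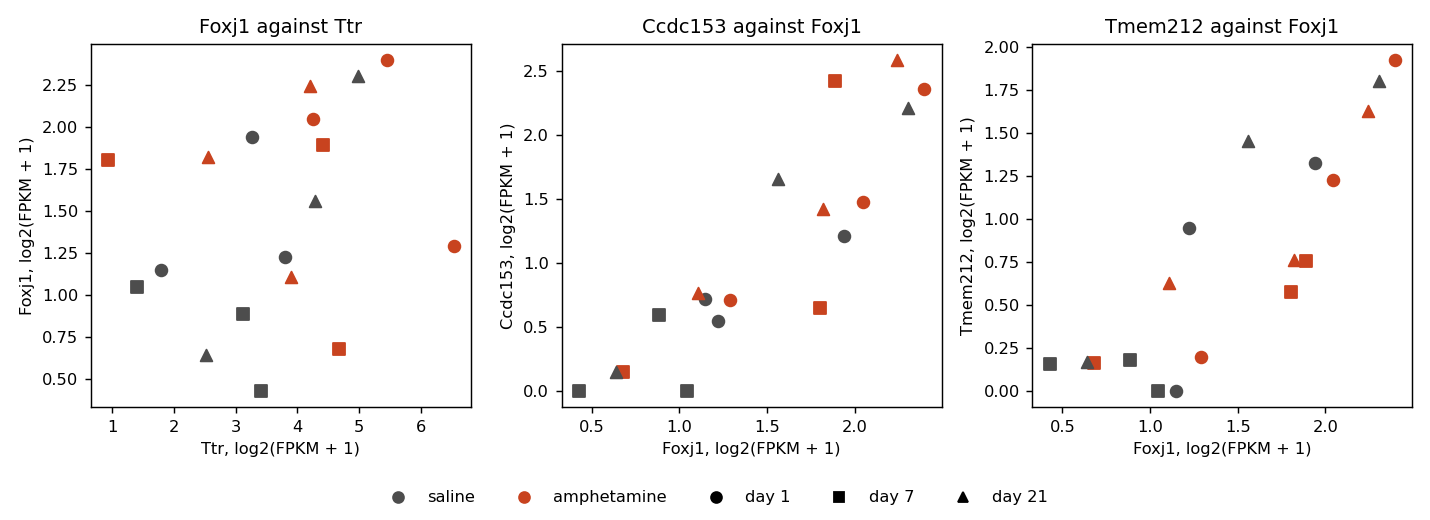
Foxj1 against Ttr, and Ccdc153 and Tmem212 against Foxj1, all in log2(FPKM + 1), with 1 point per animal, colour for treatment and shape for day. Ccdc153 and Tmem212 climb with Foxj1 (r = 0.89 and 0.85), and the points of Foxj1 against Ttr are scattered (r = 0.27).

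Markers of 3 other neighbours were compared in the same 14 pairs. Slc17a7, the vesicular glutamate transporter of cortical neurons, ran from 1.29 to 48.4 FPKM and is a marker of the overlying cortex. Its centred r was -0.18 with Ttr and -0.18 with Foxj1 (exact permutation adjusted p = 0.654 for both), and r was -0.18 and -0.05 with group means kept. Col1a2, a collagen of meningeal fibroblasts (mean 0.369 FPKM), had a centred r of 0.18 with Ttr and -0.27 with Foxj1. Dcx, a marker of migrating neuroblasts (mean 2.36 FPKM), had -0.32 and 0.22. None of these 6 pairs passed after adjustment, with or without group means.

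A longer list of 37 other genes of motile cilia was set beside Foxj1. It was chosen by name and role, with earlier results of these data known. Its median centred r with Foxj1 was 0.67 and 27 of the 37 exceeded 0.5, genes under the filter of 1 FPKM included. Among the 14 that passed the filter 7 exceeded 0.5 and their median was 0.46, beside 1000 of the 13975 tested genes (7.16%) with a median of 0.09. The same list had a median centred r of 0.13 with Ttr, with 1 gene above 0.5. These values describe genes in the same 18 libraries, which are not independent of one another. By role, over all 37, 7 of 8 radial spoke and central pair genes exceeded 0.5 with Foxj1, as did 11 of 14 tektins and other ciliary genes, 7 of 11 genes of the axonemal dynein arms and 2 of 4 transcription regulators.

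The most abundant genes of each role did not all follow Foxj1. Among radial spoke and central pair genes, Rsph1 (mean 1.73 FPKM) had a centred r of 0.74 with Foxj1, Rsph9 (3.19 FPKM) 0.52 and Spag6 (2.25 FPKM) 0.41. Tppp3, a tubulin polymerization-promoting family member at 25.02 FPKM, had 0.67, 1110017D15Rik 0.83 and Ccdc113 0.18. Of the dynein arm genes, the 3 most abundant gave low or negative values, with Zmynd10 at 0.24, Ccdc39 at -0.21 and Lrrc6 at -0.27. Of the regulators, Rfx2 (1.03 FPKM) had 0.61, the related factor Rfx3 (8.45 FPKM) -0.04 and Ccno (2.82 FPKM) -0.17. Dnali1, an axonemal dynein light intermediate chain singled out after its value was seen, had the highest centred r of the list, 0.91. In the mean of days 12 of the 14 tested cilia genes were higher with amphetamine and 2 lower, beside 55.6% of all tested genes higher. Their median difference was 0.05, and limma called none of them. Their signs are not independent, since the genes were read in the same animals. Rsph9 had the smallest p, 0.27 ± 0.12 higher (limma adjusted p = 0.925).

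The RFX half-site GTTGCC shown in Dynlrb2 and Ccdc153 was in the promoter of 21 of 37 other motile cilia genes that RefSeq covered (a count made apart from the 37 in the expression table), and of 5 of 21 other choroid plexus genes, where 14.1% of all 27025 gene names held it in at least 1 promoter. The longer form was in 6 of the 37 and in 0 of the 21, against 0.588% of all gene names. These are matches of letters, and binding was not measured.

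Other choroid plexus genes were mostly near the limit of detection. Of 24 listed genes 5 passed the filter, most of which are also made by other cells of the brain: Enpp2 (38.0 FPKM), which encodes autotaxin, the growth factor gene Igf2 (3.88), the anion exchanger gene Slc4a2 (3.77), the binding protein gene Igfbp2 (2.79) and the homeobox gene Msx1 (1.30). Genes with narrower expression were close to 0. Otx2, the homeobox factor that specifies choroid plexus, had a mean of 0.316 FPKM and was listed at 0 in 2 libraries, and Lmx1a was listed at 0 in 11. Slc13a4 averaged 0.293 FPKM and Trpv4 0.336 FPKM. In the mean of days 4 of the 5 tested genes were higher with amphetamine and 1, Igf2, was lower, beside 55.6% of all tested genes higher. Their median difference was 0.06, and limma called none.

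Across animals the 24 genes had a median centred r of 0.25 with Ttr and 0.12 with Foxj1, and 6 exceeded 0.5 with Ttr, none of which passed the filter. Of the 5 that passed it 0 exceeded 0.5 (at most 0.32), beside 353 of all tested genes (2.53%). The 6 were Cldn2 (0.73), Trpv4 (0.67), Aqp1 (0.64), Calml4 (0.62), Sostdc1 (0.60) and F5 (0.60), named after their values were seen. All 6 had mean levels under 1 FPKM, where single fragments move a value. Of the 24 genes 16 were closer to Ttr and 8 to Foxj1, and the share of all genes closer to either was not counted. With Foxj1 3 exceeded 0.5: Calml4 (0.54), 1500015O10Rik (0.55) and Enpp2 (0.54). Enpp2, the most abundant of the list, had a centred r of -0.17 with Ttr. Sostdc1, a secreted BMP and Wnt antagonist typical of choroid plexus, reached its highest level, 0.934 FPKM, in amphetamine replicate 1 of day 1, the library with the most Ttr.

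**Figure D5:**
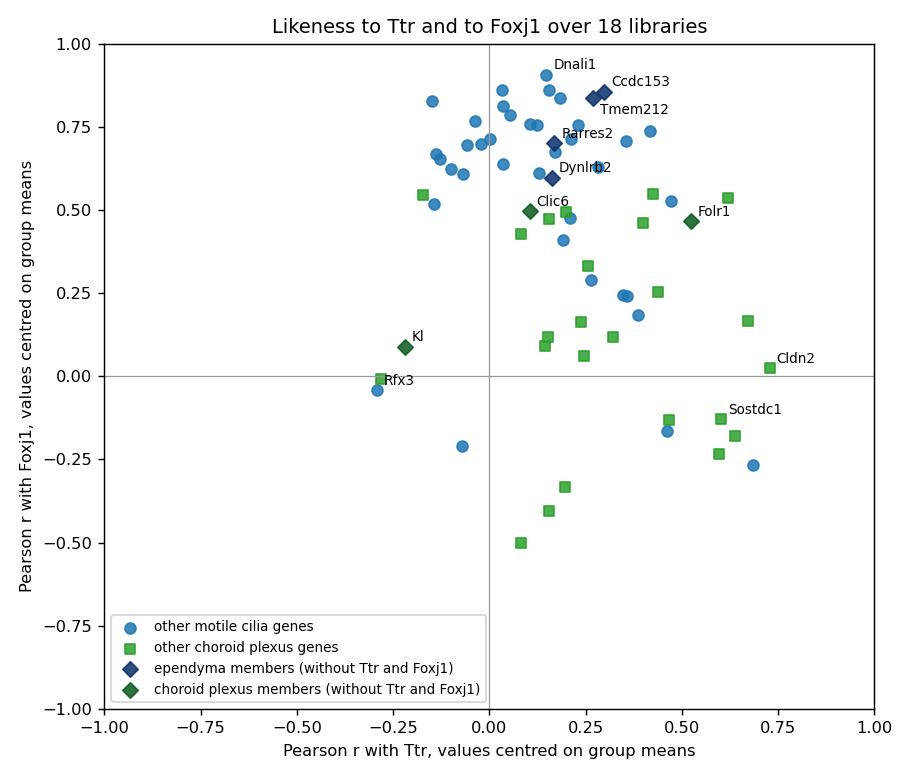
Pearson r with Ttr (x axis) and with Foxj1 (y axis) over the 18 libraries after group means were taken off, for the other markers and the listed choroid plexus and motile cilia genes found in the table. Most motile cilia genes sit above 0.5 on the Foxj1 axis, and their median on the Ttr axis is 0.13. The listed choroid plexus genes spread along both axes, from -0.28 to 0.73 (Cldn2) with Ttr and from -0.50 to 0.55 with Foxj1.

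Over all tested genes outside the 9 markers, the 8 most like Foxj1 by centred r were Gm973 (0.89), Gm12166 (0.88), Mir219-2 (0.88), Rnf34 (0.88), Mns1 (0.87), Ccdc37 (0.86), Tmem218 (0.86) and Cd24a (0.86). Mns1 and Ccdc37 encode axonemal proteins, and Cd24a encodes a surface antigen found on ependymal cells and on neuroblasts. Cd24a ran from 1.12 FPKM in saline replicate 1 of day 7, the library with the least Foxj1, to 5.92 FPKM in amphetamine replicate 3 of day 1, the library with the most. The row named Mir219-2, a very short gene, had a median of 0 and a highest value of 113 FPKM. The 8 most like Ttr were mKIAA1418 (0.90), Mrps33 (0.80), Cdk8 (0.79), Kcnab1 (0.79), Tmem29 (0.79), Ppp3ca (0.78), AK204095 (0.78) and Slc6a6 (0.77). None of them is on the choroid plexus lists, and 5 of them had a higher mean than Ttr, led by Ppp3ca (859 FPKM) and Kcnab1 (181 FPKM). These are the highest of 13975 values each, given as a description.

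Markers of other cell types were set beside both tissues. For all tested genes the median centred r was 0.09 with Foxj1 and -0.08 with Ttr, and 7.16% exceeded 0.5 with Foxj1. The share of all genes closer to Foxj1 than to Ttr was not counted. Of the endothelial genes 3 of 4 were closer to Foxj1, as were 4 of the 6 fibroblast genes. All 5 neuroblast genes (Dcx, Sox11, Dlx1, Dlx2 and Cd24a) were closer to Foxj1 than to Ttr, with a median centred r of 0.53 with Foxj1, and none was at 0 in any library. Their sum ran from 14.6 to 15.7 FPKM in saline and 12.1 to 22.2 FPKM in amphetamine libraries of day 1, 8.75 to 12.02 and 10.4 to 14.1 FPKM on day 7, and 13.3 to 16.9 and 14.5 to 20.3 FPKM on day 21. All 4 astrocyte genes were also closer to Foxj1 than to Ttr. Their median centred r with Foxj1 was 0.42, and 0 of the 4 exceeded 0.5. The most abundant of them, Slc1a3 (88.5 FPKM) and Aqp4 (15.8 FPKM), had 0.44 and 0.28. The part of neuroblasts and astrocytes in the ependymal relations was not tested.

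With Ttr, 2.53% of all tested genes exceeded a centred r of 0.5, and the median was -0.08. Beside Ttr stood the striatal neuron genes: 7 of 8 were closer to Ttr than to Foxj1, with a median centred r of 0.44, and 3 of 8 exceeded 0.5. Their sums were 3383 to 3794 FPKM in saline and 3435 to 4231 FPKM in amphetamine libraries of day 1, 3832 to 4102 and 3455 to 4143 FPKM on day 7, and 3420 to 4127 and 3530 to 4033 FPKM on day 21. None of the 8 was at 0 in any library, and their part in the level of Ttr was not tested. The 6 fibroblast genes, markers of the meninges and of the stroma of the choroid plexus, summed to 2.62 to 4.97 FPKM.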

How the data were processed

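Striatal polyA RNA of 18 mice was sequenced, in 6 labelled groups of 3. The authors deposited 1 table of FPKM per gene and library, with 0 columns of other samples. Bowtie and the build mm9 were used, per the submitters' processing notes; their versions, the quantifier and annotation were not given in the sources used here. With strand handling unknown, a gene and its antisense or overlapping partner may share reads. The members and gene lists were chosen with earlier results of these data known.

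Values were taken as log2(FPKM + 1). The filter of 1 FPKM on a gene's mean left 13975, and the 18 libraries entered 1 limma fit (version 3.58.1, in R version 4.3.3) of the 6 group means with a trended prior variance, with two-sided p-values adjusted by the Benjamini-Hochberg method over all of them. Exact permutations (8000 assignments within days), correlations (100000 resamples, or 46656 exact rearrangements within groups) and sequence searches were run in Python (version 3.11.15). Genes were named by rule: the 9 markers, the 8 genes most like Ttr and Foxj1, the 3 most abundant per role of the cilia and choroid plexus lists, the 2 most abundant of each other cell type where that list is described, and Slc17a7, Col1a2 and Dcx. Any other gene is named after its values were seen. The lists of cortical, septal, astrocyte, endothelial and blood markers gave 0 genes called by limma. A further list of another cell type is not reported here. The absolute depth is unknown; whole fragments were recovered for Ttr, Clic6 and Tmem212 only. The scripts were tested on simulated data. Alternatives were a pseudocount of 0.1, other filters and scalings, a block for the replicate number, array weights, a covariate for label number range, single-day fits and leaving out each library. Leaving out libraries from the correlations and permutations, and the permutations with a pseudocount of 0.1 or rescaled libraries, were chosen after seeing the data.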

Additional observations from a re-analysis of the deposited data

How the results depend on the processing

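No marker passed the limma threshold in any of the 6 contrasts, in the fit described or in any alternative. The animals of a group are 3, so small differences were not detectable, and large ones could also be missed. For Ttr on day 1 a log2 difference of 2.46 did not pass (limma adjusted p = 0.666). Whether the replicate numbers pair the animals was not settled. Deviations of same-numbered libraries correlated by -0.09 to 0.14, with 3 of 9 pairs over 0.1. On day 21 these correlations were 0.114, 0.043 and 0.145, and those of differently numbered libraries ran from -0.127 to 0.013. On days 1 and 7 differently numbered libraries reached 0.131 and 0.082. With the replicate number as a block limma called 0 markers and 8 genes over the whole table in the mean of days, against 17 without it and 28 with array weights; the cause was not tested. Dynlrb2 on day 21 turned to -0.15 with array weights. Leaving out 1 library at a time turned the sign of several small log2 differences. On day 21 the ranges were -1.08 to 0.15 for Ttr, -0.21 to 0.62 for Foxj1, -0.34 to 0.69 for Ccdc153, -0.18 to 0.39 for Dynlrb2 and -0.22 to 0.24 for Rarres2. For Tmem212 and Folr1, under the filter, the day 21 ranges were -0.62 to 0.20 and -0.18 to 0.11. On day 1 the ranges were -0.21 to 0.44 for Dynlrb2 and -0.05 to 0.82 for Tmem212. On day 7 the range was -0.10 to 0.35 for Rarres2. The centred r ranged from -0.36 to 0.039 for Ttr and Kl, -0.063 to 0.29 for Ttr and Clic6, -0.30 to 0.16 for Ttr and Foxj1, and -0.32 to 0.038 for Foxj1 and Slc17a7. Between 1 and 3 centred relations passed, against 2 with all libraries, and 1 passed without any single saline library of day 21. Kl had a positive mean difference under all 25 alternatives fitted, between 0.29 and 0.57. A filter of 5 FPKM gave no value for Kl, Foxj1, Ccdc153 and Dynlrb2, whose means lie under it.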
